A study of Homo sapiens with 282 samples.

Results

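The 39 genes described here are very long human genes, several of which lie at common fragile sites, measured in OCI-Ly3, an established cell line from a human diffuse large B cell lymphoma. They were chosen as a list of symbols known to span very long stretches of the genome, and the choice was made with earlier results of these arrays in view, chiefly those of camptothecin at 0.31 uM. All 39 symbols were on the array, among 18239 genes in all. From the start to the end of each gene in RefSeq (GRCh38.p14), the members spanned 277 to 1504 kb with a median of 596 kb, against a median of 25.7 kb over all genes. DOCK10, at 277 kb, was the only member under 300 kb, and 737 genes of the array, 4.05%, reached that length. Each gene stands on the probe set with the highest mean over all arrays.

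A common fragile site is a chromosome region that shows gaps and breaks when DNA replication is slowed, and many such sites coincide with very long genes. RNA polymerase needs hours to cross a gene of this size, so transcription and replication can meet within it. Topoisomerase I relaxes the supercoils that polymerases build up. Camptothecin traps that enzyme on DNA, doxorubicin and etoposide trap topoisomerase II, and mitomycin C crosslinks DNA.

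Cells in 96-well plates received a compound, the vehicle DMSO at 1%, or medium alone, and RNA was taken from the wells after 6, 12 or 24 h. At each time there were 8 DMSO arrays, 2 medium arrays, 6 of methotrexate (100 uM, a folate antagonist) and 3 for every other compound and concentration. The DNA-directed compounds were camptothecin (0.31 and 0.01 uM), doxorubicin (0.101 and 0.03 uM), aclacinomycin A (0.105 and 0.036 uM, an anthracycline like doxorubicin), etoposide (0.812 and 0.811 uM) and mitomycin C (2.56 and 0.553 uM). The others were cycloheximide (5 and 0.264 uM, a translation inhibitor), trichostatin A (0.143 and 0.114 uM, a histone deacetylase inhibitor), H-7 (20.2 and 12.4 uM, a kinase inhibitor), rapamycin (22 and 13.8 uM, an mTOR inhibitor), geldanamycin (0.032 and 0.001 uM, an Hsp90 inhibitor), monastrol (100 and 50 uM, a mitotic kinesin inhibitor), vincristine (0.01 and 0.005 uM, a microtubule poison) and blebbistatin (100 and 10 uM, a myosin inhibitor). Values are RMA log2 intensities, on which 1 unit is a factor of 2. A gene was called changed where limma, fitted over all genes of a time and adjusted by Benjamini-Hochberg, gave an adjusted p under 0.05. All compounds of a time were compared with the same 8 DMSO arrays, so their changes share that control. Triplicates are wells, and the labels do not say that they came from separate cultures, so p-values measure the spread between wells, which may be technical. A change per array cannot tell less RNA per cell from fewer cells that express the gene.

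The 94 arrays of 6 h were even, while 31 arrays of 12 h and 17 of 24 h had low signal (an upper quartile of log2 values under 8, or a 3' to 5' difference of ACTB over 2). A change between 3 treated and 8 DMSO arrays had a median standard error of 0.0988 for 6 h arrays, 0.299 for 12 h arrays and 0.276 for 24 h arrays. The 6 h arrays therefore lead here. The 6 methotrexate arrays of a time carry the replicate numbers 1 to 3 only, and if they are repeats of 3 wells their standard errors are too small. Of 5 B cell markers measured, CD74 (13.1) and PAX5 (7.23) lay above the array median of 6.54 in DMSO at 6 h, and MS4A1 (4.64), CD79A (5.02) and CD79B (4.94) lay below it. None of the 15 T cell, myeloid and epithelial markers lay above it. Of 5 fibroblast markers, COL3A1 (6.56) and PDGFRA (8.38) did.

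The 250 bases before the start of the gene are shown for the member that lay deepest under camptothecin 0.31 uM (GRIN2A), for another of the deepest members (GPHN), for the fragile site gene followed over time (WWOX), and for a member that stayed near its DMSO level (MBD5). They are RefSeq sequences of GRCh38.p14, written 5' to 3' on the gene's strand, with CG dinucleotides in capitals. GRIN2A lies on the minus strand (chr16:10182068-10182317) and the others on the plus strand (chr14:66507897-66508146 for GPHN, chr16:78099404-78099653 for WWOX, chr2:148020761-148021010 for MBD5).
GRIN2A: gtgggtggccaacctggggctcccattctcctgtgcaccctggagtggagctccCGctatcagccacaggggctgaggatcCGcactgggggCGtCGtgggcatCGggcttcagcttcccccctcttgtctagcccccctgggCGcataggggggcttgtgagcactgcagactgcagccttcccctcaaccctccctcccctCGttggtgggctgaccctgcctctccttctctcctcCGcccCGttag
GPHN: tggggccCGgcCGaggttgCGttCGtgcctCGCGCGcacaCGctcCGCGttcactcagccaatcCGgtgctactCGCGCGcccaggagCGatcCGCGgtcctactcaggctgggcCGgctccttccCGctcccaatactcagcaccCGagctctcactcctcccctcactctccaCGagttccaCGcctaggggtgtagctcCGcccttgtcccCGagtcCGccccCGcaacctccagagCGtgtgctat
WWOX: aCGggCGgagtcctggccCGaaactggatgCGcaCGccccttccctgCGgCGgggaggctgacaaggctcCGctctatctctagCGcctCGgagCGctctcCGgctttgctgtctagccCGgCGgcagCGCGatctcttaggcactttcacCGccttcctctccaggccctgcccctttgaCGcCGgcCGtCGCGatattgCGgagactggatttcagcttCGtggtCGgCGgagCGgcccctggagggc
MBD5: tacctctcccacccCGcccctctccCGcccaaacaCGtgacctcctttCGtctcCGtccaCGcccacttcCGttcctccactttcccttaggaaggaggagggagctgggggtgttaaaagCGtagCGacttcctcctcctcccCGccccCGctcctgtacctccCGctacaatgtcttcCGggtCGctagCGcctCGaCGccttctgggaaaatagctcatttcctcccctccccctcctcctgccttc
CG occurred 9 times in the GRIN2A stretch, 27 times in those of GPHN and WWOX, and 17 times in that of MBD5. Over the 37 members with a sequence the median was 22, and over 14492 genes of the array 18. The median GC content was 65.2% over these members and 62.8% over all genes, so both values lay near those of the array as a whole. The letters TATAAA, on either strand, occurred in 1 member (2.70%) and in 8.79% of all genes.

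Camptothecin at 0.31 uM for 6 h was the condition in view when the members were picked, so its values describe them and carry no test. The median change of the 39 members was -1.49, against 0.06 over all genes. All 39 had a fitted change below 0, and 37 were called lower, where 19.9% of all genes were lower and 27.0% higher. The 3 least moved members were RERE at -0.12, MBD5 at -0.16 and SND1 at -0.36, and the deepest was GRIN2A at -4.17.

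**Figure D1:**
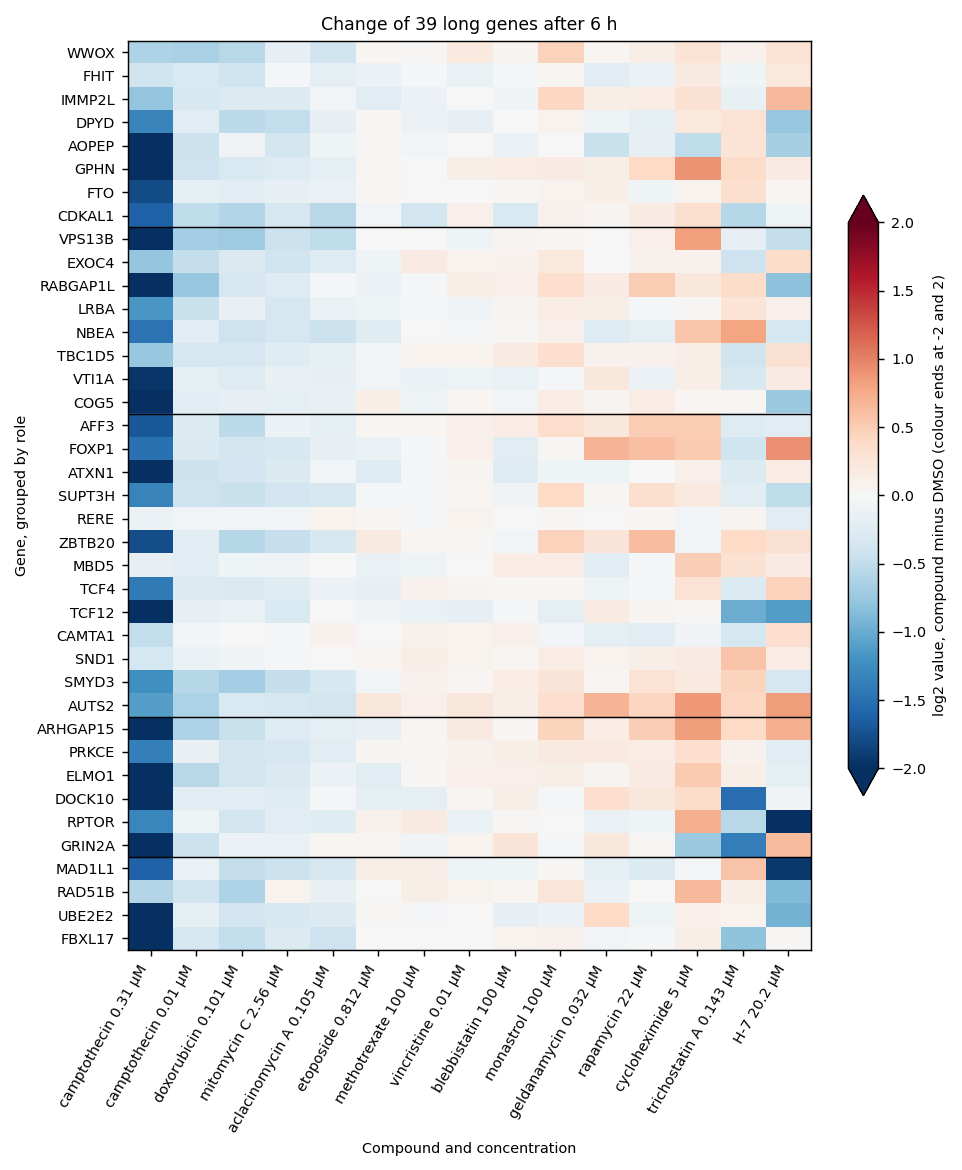
Log2 change against DMSO at 6 h of the 39 members (rows, grouped by role) in 15 groups of arrays (columns), with blue for lower and red for higher. The camptothecin 0.31 uM column is blue in nearly every row, with GRIN2A deepest at -4.17, the columns of camptothecin 0.01 uM, doxorubicin and mitomycin C are pale blue, and cycloheximide is mostly red.

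Among the 8 fragile site and metabolic genes, the change under camptothecin 0.31 uM at 6 h ran from -3.47 to -0.40 with a median of -1.46. GPHN encodes gephyrin, a scaffold of inhibitory synapses that also completes the molybdenum cofactor. GPHN lay between 9.02 and 9.32 in DMSO (median 9.12) and at 5.51, 5.48 and 6.00 in the treated arrays, a change of -3.47. AOPEP, an aminopeptidase gene, lay between 10.16 and 10.34 in DMSO (median 10.26) and at 7.13, 6.70 and 6.50 after treatment, a change of -3.46. In both genes the 2 groups were far apart. The 3 genes best known from fragile sites moved much less at this time. WWOX, an oxidoreductase with WW domains, lay between 8.39 and 8.70 in DMSO (median 8.535) and at 7.87, 7.87 and 7.94 under camptothecin, a change of -0.62. IMMP2L, a subunit of the mitochondrial inner membrane peptidase, lay between 6.59 and 6.99 in DMSO (median 6.67) and at 5.96, 6.04 and 5.76 under camptothecin, a change of -0.79. FHIT, the longest member at 1504 kb and a dinucleoside polyphosphate hydrolase, lay between 4.92 and 5.37 in DMSO (median 5.12) and at 4.69, 4.79 and 4.65 under camptothecin, a change of -0.40. FHIT, with NBEA and MBD5, is among the 40% of genes with the lowest levels, and of these NBEA was at -1.48 under the same treatment. In this group the others were FTO, an RNA demethylase, at -1.79, CDKAL1, which modifies transfer RNA, at -1.61, and DPYD, which starts pyrimidine breakdown, at -1.31.

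The 8 genes of membrane traffic had a median of -1.71. VPS13B, which moves lipids at the Golgi, lay between 8.04 and 8.42 in DMSO (median 8.15) and at 5.02, 5.18 and 5.06 under camptothecin, a change of -3.09. RABGAP1L, which switches off Rab GTPases, lay between 10.06 and 10.32 in DMSO (median 10.265) and at 7.98, 7.75 and 7.97 under camptothecin, a change of -2.33. Neither gene's groups overlapped. COG5, part of a Golgi tethering complex, changed by -2.72, and the SNARE gene VTI1A by -1.94. The BEACH domain genes NBEA and LRBA were at -1.48 and -1.16. EXOC4, of the exocyst, and TBC1D5, a Rab7 regulator, were at -0.77 and -0.76, the least of this group.

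Of the 13 transcription factor and chromatin genes, 11 were called lower and the median was -1.34. FOXP1, a regulator of B cell fate, lay between 8.20 and 8.55 in DMSO (median 8.43) and at 7.03, 6.82 and 6.98 under camptothecin, a change of -1.49. AFF3, a nuclear factor of lymphoid cells, lay between 6.73 and 7.29 in DMSO (median 7.075) and at 5.34, 5.53 and 5.21 under camptothecin, a change of -1.70. TCF4, an E protein, lay between 9.24 and 9.61 in DMSO (median 9.48) and at 7.98, 8.11 and 8.09 under camptothecin, a change of -1.41. These 3 were separate from DMSO in every array. SND1, a coactivator with nuclease-like domains, lay between 10.89 and 11.21 in DMSO (median 11.13) and at 10.66, 10.75 and 10.78 under camptothecin. RERE, an arginine-glutamate repeat corepressor, lay between 9.09 and 9.51 in DMSO (median 9.345) and at 9.23, 9.21 and 9.18 under camptothecin. MBD5, a methyl-CpG-binding domain protein, lay between 4.70 and 4.92 in DMSO (median 4.815) and at 4.77, 4.63 and 4.56 under camptothecin. RERE and MBD5 overlapped DMSO, and were the only members that did. The share of all genes that overlapped is not given here. The others were ATXN1 (-2.99), the E protein TCF12 (-2.57), the repressor ZBTB20 (-1.77), SUPT3H of a histone acetyltransferase complex (-1.34), the lysine methyltransferase SMYD3 (-1.23), AUTS2 of a Polycomb complex (-1.10) and CAMTA1 (-0.50).

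The 6 genes of signalling, cytoskeleton and channels had the deepest median, -2.71. GRIN2A, a subunit of the NMDA glutamate receptor, lay between 9.94 and 10.21 in DMSO (median 10.04) and at 6.03, 5.72 and 5.92 under camptothecin. DOCK10 (-3.08) and ELMO1 (-2.91), which activate small GTPases that move the cytoskeleton, ARHGAP15 (-2.51), which turns Rac off, protein kinase C epsilon (PRKCE, -1.37) and the mTORC1 subunit RPTOR (-1.31) followed. Of the 4 genes of genome maintenance and ubiquitin transfer, the F-box gene FBXL17 was at -2.86, the ubiquitin-conjugating enzyme UBE2E2 at -2.49, the spindle checkpoint gene MAD1L1 at -1.61 and the recombination gene RAD51B at -0.59.

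The arrays of the lower dose of camptothecin, 0.01 uM, are other arrays than those of 0.31 uM, but share its DMSO controls, and the members were listed with results of the same compound known. At 6 h, 20 of 39 members fell and 0 rose, against 1.56% of all genes lower and 2.09% higher. The median member change was -0.31, against 0.02 over all genes. All 3 treated arrays lay below all 8 DMSO arrays for 22 members, and the share of all genes that did so is not given here. RABGAP1L fell from 10.23 ± 0.09 (SD, n = 8) to 9.47 ± 0.06 (n = 3), with single arrays at 9.41, 9.52 and 9.49, a log2 change of -0.76 (SE 0.059, limma adjusted p = 8e-19). VPS13B, at 7.33, 7.48 and 7.66, fell by 0.68 (limma adjusted p = 1.26e-08). WWOX, at 7.70, 7.86 and 8.03, fell by 0.65 (SE 0.075, limma adjusted p = 5.41e-11). WWOX thus stood as low at this dose as at 0.31 uM, where it was at -0.62, while GRIN2A, GPHN and AOPEP were at -0.43, -0.42 and -0.43 here against -4.17, -3.47 and -3.46 there. FHIT (-0.31, limma adjusted p = 0.153), IMMP2L (-0.33, adjusted p = 0.138) and AFF3 (-0.27, adjusted p = 0.24) were not called. By role, the members called lower were 4 of 8 fragile site and metabolic genes, 6 of 8 of membrane traffic, 6 of 13 transcription and chromatin genes, 3 of 6 signalling genes and 1 of 4 of genome maintenance.

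**Figure D2:**
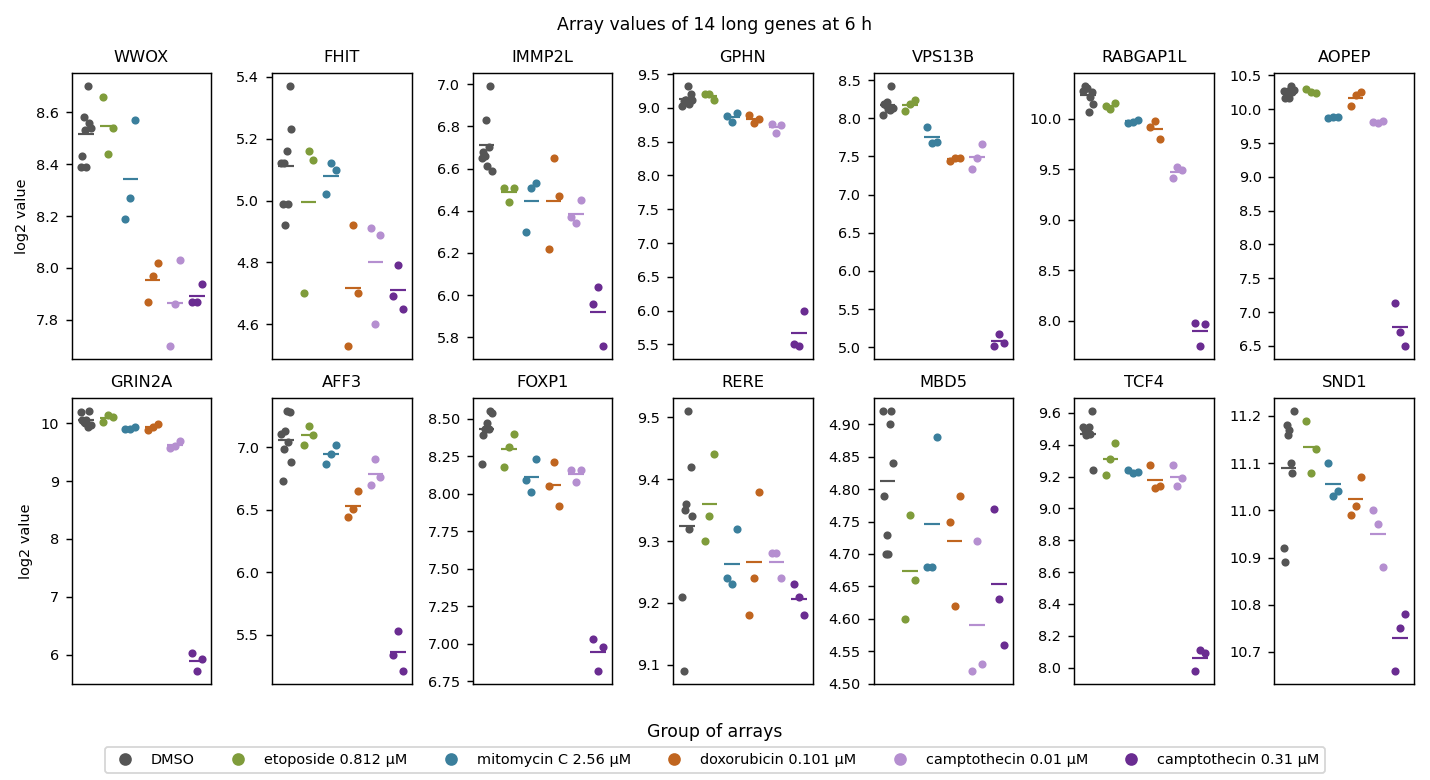
Log2 intensity of 14 members in every array of 6 h, in DMSO and under 5 treatments, 1 panel per gene and 1 point per array. GRIN2A, GPHN, AOPEP and VPS13B drop by more than 3 units under camptothecin 0.31 uM, WWOX stands at about the same level under both doses of camptothecin and under doxorubicin, and etoposide overlaps DMSO in most panels.

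Doxorubicin at 0.101 uM for 6 h lowered 26 of 39 members and raised 0, against 3.74% of all genes lower and 3.40% higher. The median member change was -0.36, against 0.01 over all genes. In 23 members every treated array lay below DMSO, again without the share of all genes. VPS13B, at 7.44, 7.48 and 7.48, fell by 0.71 (limma adjusted p = 3.42e-09). SMYD3 lay between 8.58 and 8.76 in DMSO and at 7.92, 8.05 and 7.91 under doxorubicin, and fell by 0.68 (limma adjusted p = 2.72e-13). RAD51B fell by 0.62 (limma adjusted p = 0.000867). Doxorubicin lowered WWOX to 7.87, 7.97 and 8.02 (-0.56, limma adjusted p = 8.61e-09) and FHIT to 4.53, 4.92 and 4.70 (-0.40, limma adjusted p = 0.0218). WWOX was separate from DMSO in every array and FHIT was not. AFF3 fell by 0.52 (adjusted p = 0.00047), whereas GRIN2A (-0.12), AOPEP (-0.07) and IMMP2L (-0.27) were not called. Of the fragile site and metabolic genes 6 of 8 were lower, of membrane traffic 4 of 8, of transcription and chromatin 7 of 13, of signalling 5 of 6 and of genome maintenance 4 of 4. When a gene's probe sets were averaged, 14 members were lower, and the share of all genes in that fit is not given here. At 0.03 uM, WWOX was the only member called (-0.31, limma adjusted p = 0.0185), where 0.154% of all genes were lower.

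Mitomycin C at 2.56 uM for 6 h lowered 22 members and raised 0, against 1.09% of all genes lower and 1.88% higher, with a median of -0.27 against -0.01 over all genes. DPYD fell by 0.50 (limma adjusted p = 0.0014), SMYD3 by 0.48 (adjusted p = 1.8e-07) and ZBTB20 by 0.46 (adjusted p = 0.0132). VPS13B fell by 0.42 (limma adjusted p = 0.00126), with arrays at 7.89, 7.67 and 7.69, but its change was 0.02 when all its probe sets were averaged. WWOX (8.19, 8.27 and 8.57), FHIT, IMMP2L and AFF3 were not called. When the arrays of 1 replicate number were left out of every compound together, the count was 11 without number 1 and 10 without number 2. With a gene's probe sets averaged it was 9. The shares of all genes in these fits are not given here. At 0.553 uM no member was called, with 0.581% of all genes lower and 0.356% higher, and 4 of the 39 members had an unadjusted p under 0.05, as had 10.0% of all genes.

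The remaining topoisomerase II compounds moved few members at 6 h. Under aclacinomycin A at 0.105 uM, 4 members fell, against 0.428% of all genes: VPS13B (-0.51, limma adjusted p = 0.00162), FBXL17 (-0.41, 0.00254), WWOX (-0.40, 0.00252) and SMYD3 (-0.32, 0.00746). That count was 0 without the arrays numbered 2 of every compound, 11 without those numbered 3 and 8 without DMSO replicate 2. Doxorubicin at 0.101 uM and aclacinomycin A at 0.105 uM differ slightly in dose, and their difference was not tested. Etoposide at 0.812 uM lowered ELMO1 alone (-0.23, limma adjusted p = 0.00301), where 2.09% of all genes were lower. The count moved between 0 and 2 when replicates were left out, and was 0 without the arrays numbered 2 of every compound. At 0.811 uM, DOCK10 fell by 0.41 (limma adjusted p = 1.39e-05) and RPTOR rose by 0.30 (adjusted p = 0.0192), against 2.78% of all genes lower and 3.56% higher. WWOX under etoposide 0.812 uM lay at 8.66, 8.44 and 8.54, within the DMSO range. Methotrexate moved 0 members past the limma threshold, where 0.592% of all genes were lower and 1.17% higher. An unadjusted p below 0.05 was found for 5 of the 39 members and for 17.8% of all genes.

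Outside the members, the change at 6 h was also set against gene span. Genes were limited to the upper 60% by level, members were left out, and the rest were put in bins of under 10 kb (2347 genes), 10 to 30 kb (3223), 30 to 100 kb (3457), 100 to 300 kb (1547) and at least 300 kb (326). Under camptothecin 0.31 uM the share called lower was 7.37, 14.2, 38.2, 79.2 and 80.7% from the shortest to the longest bin, with median changes of 0.24, 0.20, -0.06, -0.70 and -1.10. At 0.01 uM the shares were 1.32, 1.95, 1.97, 2.65 and 18.1%, under doxorubicin 0.101 uM 4.52, 4.93, 5.35, 6.79 and 27.3%, and under mitomycin C 2.56 uM 0.767, 0.993, 1.16, 1.81 and 13.2%. Under camptothecin 0.31 uM the share called higher was 57.0, 51.0, 26.3, 5.69 and 3.07%. RMA equalises the arrays, so changes are relative to the other genes. Under this dose more genes were therefore lower than higher from 30 kb up. In the other 3 treatments the share called lower stepped up only at 300 kb. Etoposide 0.812 uM lowered 1.53% of the longest genes and 3.03% of the shortest. Across these 10900 genes, Spearman's rho between span and change was -0.56 for camptothecin 0.31 uM, -0.13 for 0.01 uM, -0.15 for doxorubicin, -0.20 for mitomycin C and -0.03 for etoposide. Groups that called no member had values as large, with -0.15 for methotrexate and -0.21 for mitomycin C 0.553 uM, and rho was 0.33 for vincristine 0.005 uM, 0.22 for geldanamycin 0.032 uM and 0.21 for its lower dose. All genes of an array share its RNA, and genes are not independent replicates.

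**Figure D3:**
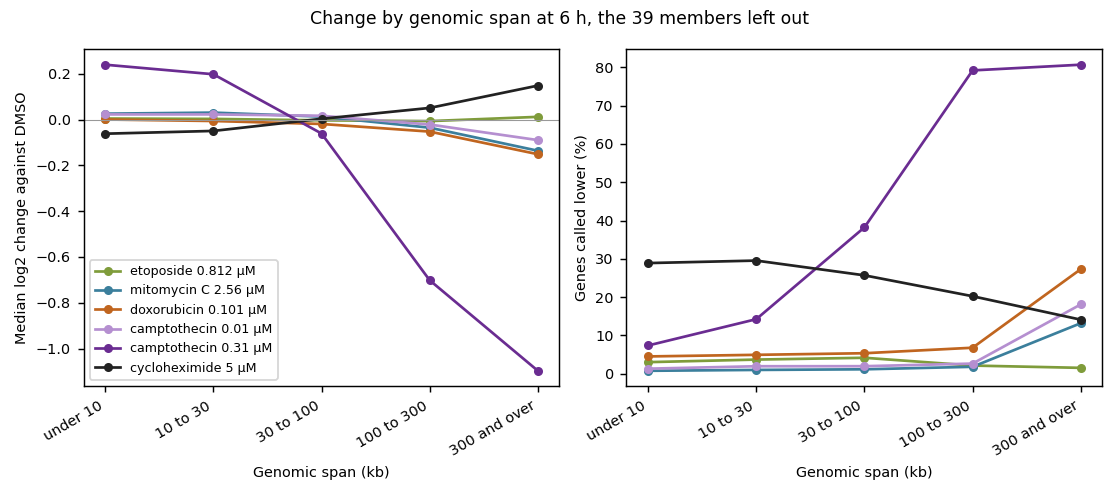
Median log2 change at 6 h (left) and percent of genes called lower (right) in 5 bins of gene span in kb, with members left out, for 6 compounds. Camptothecin 0.31 uM falls to -1.10 and 80.7% in the longest bin, camptothecin 0.01 uM, doxorubicin and mitomycin C step up to 18.1, 27.3 and 13.2% there, and etoposide stays low.

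For a test over arrays, each array was given the median of genes of at least 300 kb minus that of genes under 10 kb, members left out. Camptothecin 0.01 uM shifted this difference by -0.129, doxorubicin by -0.155 and mitomycin C 2.56 uM by -0.169. In each of the 3 the exact two-sided permutation test gave p = 0.00606 and 0.0225 adjusted over the 26 groups tested at 6 h, and 0.00606 is the smallest p that 3 against 8 arrays can give. Mitomycin C 0.553 uM (-0.086) and aclacinomycin A 0.105 uM (-0.060) each had an adjusted exact p = 0.0394. Etoposide 0.812 uM gave 0.005 (adjusted exact p = 0.885) and trichostatin A 0.143 uM 0.015 (adjusted exact p = 0.585). Positive shifts were found for cycloheximide 5 uM (0.217), geldanamycin 0.032 uM (0.158), rapamycin 22 uM (0.139) and vincristine 0.005 uM (0.137), each with an adjusted exact p = 0.0225. H-7 20.2 uM, at 0.068, did not pass (adjusted exact p = 0.0675). The shift under camptothecin 0.31 uM was -1.32, given as a description.

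Within the 39 members, which are all long, span ordered the changes differently at the 2 doses of camptothecin. At 0.31 uM and 6 h Spearman's rho between span and change was 0.36, so the longest members tended to lie least deep at that time, and at 0.01 uM it was -0.50. At 0.31 uM rho was 0.11 at 12 h and 0.02 at 24 h, so the order by span was one of 6 h. Under doxorubicin 0.101 uM at 6 h rho was -0.37, and under mitomycin C 2.56 uM -0.12. WWOX (1113 kb) and GRIN2A (430 kb) show the contrast. Under camptothecin 0.31 uM the members with higher levels also tended to lie deeper, more so later than at 6 h. With level in place of span, rho was -0.29 for the 6 h arrays, -0.67 for those of 12 h and -0.62 for those of 24 h. Why level and depth went together was not tested. These are correlations across genes within the same arrays, without a test.

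Several compounds moved members upward at 6 h. Cycloheximide at 5 uM raised 18 members and lowered 2, against 16.5% of all genes higher and 16.8% lower. GPHN rose by 0.89 (limma adjusted p = 1.77e-20), AUTS2, at 7.50, 7.72 and 7.50 against 6.50 to 6.90 in DMSO, by 0.86 (adjusted p = 1.07e-10), and ARHGAP15, at 10.76, 10.61 and 10.61 against 9.71 to 9.94, by 0.84 (adjusted p = 4.43e-25). The 2 that fell were GRIN2A (-0.74, limma adjusted p = 2.04e-19) and AOPEP (-0.51, adjusted p = 6.36e-11), which are among the deepest under camptothecin. At 0.264 uM, 7 members rose and 1 fell, where 5.32% of all genes were higher and 4.45% lower, with RAD51B (0.56), ARHGAP15 (0.55) and GPHN (0.54) leading and AOPEP (-0.35) falling. Of the same other long genes, 13.8% rose and 1.84% fell at this dose.

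Monastrol at 100 uM raised 10 members and lowered 0, against 4.61% of all genes higher and 2.99% lower, with WWOX and ZBTB20 at 0.46 and ARHGAP15 at 0.45. The count was 5 without the arrays numbered 1 of every compound and 6 without those numbered 3. At 50 uM SUPT3H (0.35), ARHGAP15 (0.30) and WWOX (0.28) rose, where 0.959% of all genes did. Rapamycin at 22 uM raised 11 members, led by ZBTB20 (0.62), FOXP1 (0.60) and RABGAP1L (0.51), and lowered MAD1L1 (-0.28), CAMTA1 (-0.22) and AOPEP (-0.17), against 13% of all genes higher and 13.6% lower. Geldanamycin at 0.032 uM raised 7 and lowered 2, against 6.73 and 9.76% of all genes, with FOXP1 (0.68) and AUTS2 (0.67) highest and AOPEP (-0.45) lowest. Of the same other long genes, monastrol 100 uM raised 12.6% and lowered 1.53%. Rapamycin 22 uM raised 26.7% of them and lowered 9.51%, and geldanamycin 0.032 uM raised 16.0% and lowered 3.99%. Vincristine at 0.005 uM raised GPHN (0.32) and DOCK10 (0.30), and blebbistatin at 100 uM raised GRIN2A (0.25), where 1.80 and 1.67% of all genes were higher.

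Trichostatin A at 0.143 uM split the members, with 14 lower and 15 higher, against 22.4 and 22.3% of all genes. DOCK10 fell by 1.52 (limma adjusted p = 2.09e-33), GRIN2A by 1.38 (adjusted p = 8.14e-37) and TCF12 by 0.99 (adjusted p = 1.71e-12). NBEA rose by 0.79 (adjusted p = 1.47e-06), and SND1 and MAD1L1 by 0.57 each. H-7 at 20.2 uM lowered 15 and raised 12, against 27 and 23% of all genes. Of the same other long genes it lowered 36.8 and raised 28.5%, near the shares of the members. RPTOR fell by 2.18 (limma adjusted p = 6.74e-38), MAD1L1 by 1.93 (adjusted p = 7.62e-33) and TCF12 by 1.12, while FOXP1 rose by 0.92, AUTS2 by 0.83 and ARHGAP15 by 0.71. In medium without DMSO, 9 members were higher and 7 lower than in DMSO, against 11.7 and 13.8% of all genes, with TCF4 at 0.81 and VTI1A at -0.81 as the ends (2 medium arrays). Members were thus moved by many treatments, in several of them at shares near those of other long genes. With all 6 h arrays, the most members were called lower under both doses of camptothecin and the higher doses of doxorubicin and mitomycin C. That separation depends on the fit. With a gene's probe sets averaged, doxorubicin lowered 14 members and mitomycin C 9. With arrays left out, the count for the lower dose of camptothecin fell as low as 15. These counts are no higher than the 15 of H-7 with all arrays.

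Under camptothecin 0.31 uM the members did not keep the order of 6 h. The median change went from -1.49 (6 h) through -1.86 (12 h) to -2.30 (24 h), with 33 members called lower at 12 h (4.28% of all genes) and 34 at 24 h (5.41%). These times are also a description, and 1 of the 3 treated arrays had low signal at 12 h and at 24 h. From 6 to 24 h, 25 members went deeper, 10 of them by more than 1 unit, and 14 went shallower, 2 of them by more than 1 unit. WWOX went from -0.62 through -2.42 to -3.67, TBC1D5 from -0.76 through -3.55 to -3.82, RABGAP1L from -2.33 through -4.43 to -4.77 and SND1 from -0.36 through -1.86 to -2.44. SMYD3 went from -1.23 to -3.25 at 12 h, and EXOC4 from -0.77 to -2.46. GRIN2A was already at -4.17 at 6 h and stood at -4.30 and -3.87 later. The change of MAD1L1 went from -1.61 through -0.93 to -0.41, and that of TCF12 from -2.57 through -1.35 to -1.16. Part of this lay in the controls, since the DMSO median of MAD1L1 was 8.28 at 6 h and 7.705 at 24 h, while its treated arrays were at 6.61, 6.72 and 6.65 and then at 6.56, 7.76 and 7.55. Of the 24 h arrays only the one at 6.56 lay below the DMSO range of that time, so the change of -0.41 rests on that array. The DMSO median of TCF12 was 7.535 at 6 h and 7.165 at 24 h. RERE stayed at -0.12, -0.02 and -0.12.

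**Figure D4:**
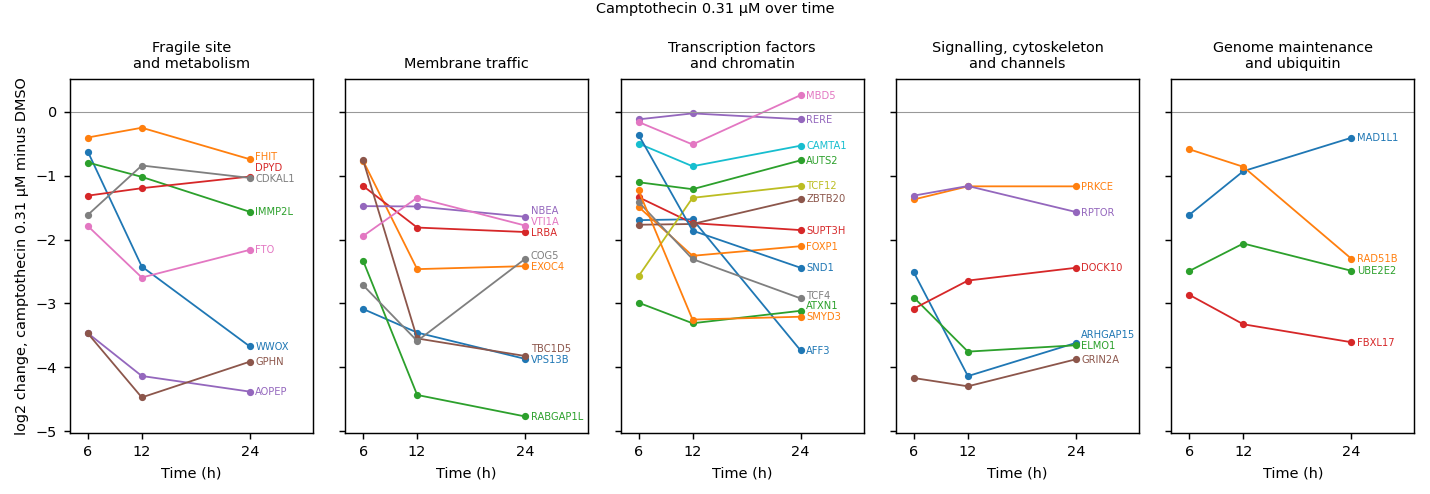
Log2 change against DMSO of the same time under camptothecin 0.31 uM at 6, 12 and 24 h, 1 line per member and 1 panel per role. WWOX and TBC1D5 go from -0.62 and -0.76 at 6 h to -3.67 and -3.82 at 24 h, GRIN2A stays at -3.87 or below, and MAD1L1 and TCF12 come nearer to DMSO, whose own level of both genes was lower at 24 h than at 6 h.

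WWOX was the member whose fall with time was called in its own test under doxorubicin 0.101 uM. At 24 h WWOX lay between 8.36 and 9.08 in DMSO (median 8.66) and at 6.44, 6.16 and 6.54 under doxorubicin, a change of -2.27 (limma adjusted p = 3.93e-15). The change at 24 h exceeded that at 6 h by -1.71 (limma adjusted p = 2.31e-06), the only such member, where 1.12% of all genes differed between the times, and 11 members did without the low-signal arrays, where 20.3% of all genes did. At 12 h WWOX was at 7.70, 6.07 and 5.99 under doxorubicin and between 7.47 and 8.64 in DMSO, and all 3 treated arrays had low signal. Under doxorubicin 0.03 uM at 24 h WWOX was at 7.57, 7.74 and 7.64 (-1.0, limma adjusted p = 0.000871), and under mitomycin C 0.553 uM at 7.76, 7.65 and 7.82 (-0.91, adjusted p = 0.00276). Camptothecin 0.01 uM gave 7.83, 7.67 and 7.76 (-0.90, limma adjusted p = 0.00327). Under mitomycin C 2.56 uM, a comparison known when WWOX was listed, it was at 6.01, 4.92 and 6.28, and under camptothecin 0.31 uM at 5.36, 4.63 and 4.95. Etoposide 0.811 uM gave 7.50, 7.98 and 8.02 (-0.82, limma adjusted p = 0.00514). Etoposide 0.812 uM gave 8.07, 8.01 and 7.88 (-0.67), not called with all arrays (limma adjusted p = 0.065) and called without the low-signal ones (-0.71, adjusted p = 1.18e-08). Methotrexate gave 7.81 to 8.15 over 6 arrays (-0.63, limma adjusted p = 0.00503). In all these groups every treated array lay below every DMSO array, and medium alone was at 8.86 and 8.94. Trichostatin A 0.143 uM also lowered WWOX at 24 h (-0.71, limma adjusted p = 0.0178), and cycloheximide 5 uM raised it (0.70, adjusted p = 0.0104), in both with arrays that overlapped DMSO. Aclacinomycin A gave 8.11, 8.34 and 8.37 at 0.105 uM and 8.48, 8.32 and 8.62 at 0.036 uM, which overlapped DMSO and were not called. Among the DNA-directed compounds and methotrexate WWOX was lowest under camptothecin 0.31 uM, then mitomycin C 2.56 uM and doxorubicin 0.101 uM, whose ranges touch or overlap their neighbours, and 6 more groups lay close together between 7.50 and 8.15, below those of aclacinomycin A except for its array at 8.11.

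**Figure D5:**
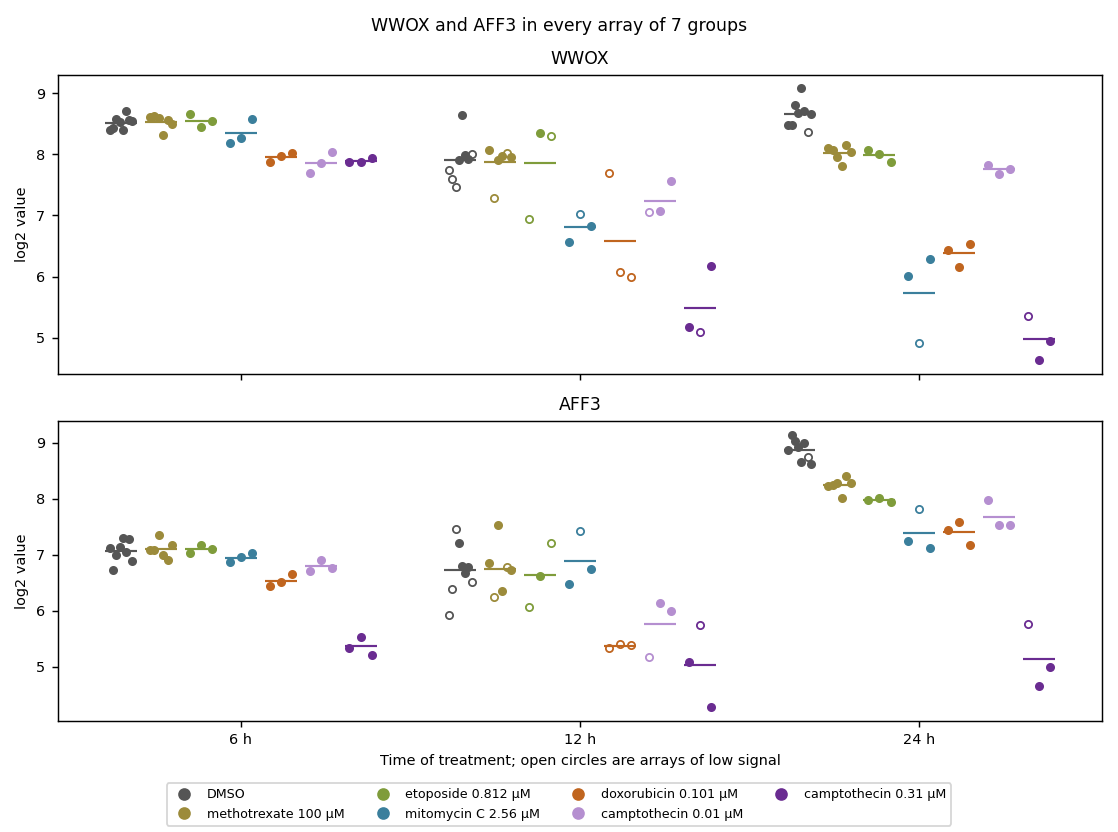
Log2 intensity of WWOX and AFF3 in every array of 7 groups at 6, 12 and 24 h, with low-signal arrays as open circles. WWOX in DMSO stays between 7.47 and 9.08 while doxorubicin 0.101 uM reaches 6.16 to 6.54 at 24 h, and AFF3 in DMSO is between 6.73 and 7.29 at 6 h and between 8.62 and 9.14 at 24 h.

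AFF3 behaved differently, because its level in DMSO was not the same at each time. It lay between 6.73 and 7.29 in DMSO at 6 h, between 5.93 and 7.45 at 12 h and between 8.62 and 9.14 at 24 h, and at 9.12 and 9.15 in medium at 24 h. Its changes at 24 h are therefore differences from a higher control level. Under doxorubicin 0.101 uM AFF3 was at 7.44, 7.58 and 7.17 at 24 h (-1.48, limma adjusted p = 4.17e-07), above its own 6 h arrays of 6.44 to 6.65. Under camptothecin 0.01 uM it was at 7.97, 7.53 and 7.53 (-1.20, limma adjusted p = 0.000209), and under mitomycin C 0.553 uM at 8.01, 7.62 and 8.01 (-0.99, adjusted p = 0.00336). Mitomycin C 2.56 uM gave 7.25, 7.81 and 7.12 (-1.48, limma adjusted p = 6.67e-07). Under etoposide AFF3 was at 7.97, 8.01 and 7.94 with 0.812 uM (-0.90, limma adjusted p = 0.0105) and at 6.84, 7.21 and 7.45 with 0.811 uM (-1.71, adjusted p = 4.31e-08). Among the other compounds AFF3 was lowered at 24 h by trichostatin A 0.143 uM (-2.06, limma adjusted p = 9.94e-11) and 0.114 uM (-1.35, adjusted p = 4.05e-05), rapamycin 22 uM (-1.56, adjusted p = 8.3e-07), cycloheximide 5 uM (-1.21, adjusted p = 5.3e-05), H-7 at 20.2 uM (-0.97, adjusted p = 0.00186) and 12.4 uM (-0.61, adjusted p = 0.0133), and methotrexate (-0.63, adjusted p = 0.0151). All 3 arrays of H-7 12.4 uM had low signal. Under camptothecin 0.31 uM, at 5.76, 4.66 and 4.99, AFF3 stood below its 6 h range in DMSO.

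MAD1L1 was the 1 member called higher under doxorubicin at 24 h. At 24 h it lay between 7.39 and 7.97 in DMSO and at 9.32, 9.21 and 9.11 under doxorubicin 0.101 uM, a rise of 1.52 (limma adjusted p = 0.0321), after a change of -0.48 at 6 h. It lay at 8.74, 8.72 and 8.63 under camptothecin 0.01 uM, at 8.72, 8.55 and 8.76 under etoposide 0.812 uM and between 8.70 and 8.94 under methotrexate. These groups were above DMSO in every array but were not called with all arrays, where MAD1L1 has a standard error of 0.47 for 3 arrays. Without the low-signal arrays its change was 0.96 under camptothecin 0.01 uM (limma adjusted p = 9.2e-14) and 1.05 under methotrexate (adjusted p = 3.32e-20). In DMSO at 6 h MAD1L1 lay between 8.19 and 8.39, above its 24 h range.

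The counts at 24 h depended on the low-signal arrays. Doxorubicin 0.101 uM lowered 10 members and raised 1, against 3.07% of all genes lower and 3% higher, and 27 were lower without those arrays, where 19.8% of all genes were. The count was 5 without the arrays numbered 1 of every compound and 6 without those numbered 2. Replicates of the compounds were left out in this joint way throughout. Camptothecin 0.01 uM lowered 2 (0.208% of all genes), 1 without replicate 1 or 2, and 23 without the low-signal arrays (11.4% of all genes). Mitomycin C 2.56 uM lowered 26 members (18.1% of all genes), and 8 without the arrays numbered 2 of every compound, of which its own had low signal. Methotrexate lowered 4 (1.32% of all genes), and 26 without the low-signal arrays (20.6%). Etoposide 0.812 uM lowered 1 (0.526%), and 6 without them, a share of the members near the 13.6% of all genes. Etoposide 0.812 uM at 24 h had 0 without the arrays numbered 1 or 2 of every compound, and 2 without DMSO replicate 7. At 12 h doxorubicin 0.101 uM lowered 9 members (2.07% of all genes), but all 3 treated arrays had low signal, and the count was 2, 18 and 0 without replicates 1, 2 and 3. The members named in these comparisons beside WWOX and AFF3 were ELMO1 under doxorubicin at 24 h (-1.06), TBC1D5 under methotrexate at 24 h (-0.69), and UBE2E2 (-1.58), ELMO1 (-1.48) and TBC1D5 (-1.37) under doxorubicin at 12 h.

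Probe sets of a gene did not always move together. The members carry 147 probe sets, and 36 members have several. Under camptothecin 0.31 uM at 6 h, 109 of 147 were lower and 7 higher, where 20.4% of all probe sets were lower. All 3 of GRIN2A (-4.17 to -3.59), both of GPHN and all 11 of TCF4 were lower, and 10 of 12 of FOXP1. The 5 of WWOX ran from -0.62 to 0.27, with 3 lower and 1 higher, and the 4 of AFF3 from -1.70 to -0.02. At 6 h 28 were lower under camptothecin 0.01 uM (1.11% of all probe sets), 41 under doxorubicin 0.101 uM (2.46%), 23 under mitomycin C 2.56 uM (0.639%) and 2 under etoposide 0.812 uM (1.48%).

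Other long genes gave a wider range than the members. Of genes of at least 300 kb in the upper 60% by level, the deepest under camptothecin 0.31 uM at 6 h were TENM3 (-3.71), CEP128 (-3.51), SYT1 (-3.48), CASK (-3.28) and PTPRK (-3.10), and the highest were DSCAML1 (1.35), PCDH9 (1.22), SORCS2 (0.92), KCNMA1 (0.66) and SAMD5 (0.56). A second list of 40 genes, most of them long, was chosen with earlier results of these data known, so its counts are a description. Of these genes 38 were measured, and 29 were lower and 2 higher under camptothecin 0.31 uM at 6 h, against 19.9 and 27.0% of all genes. In the same list 10 were lower under camptothecin 0.01 uM (1.56% of all genes), 12 under doxorubicin 0.101 uM (3.74%), 9 under mitomycin C 2.56 uM (1.09%) and 1 under etoposide 0.812 uM (2.09%), while cycloheximide 5 uM raised 24 and lowered 1 (16.5 and 16.8%). FAF1 (523 kb) was at -2.39, -0.43, -0.41 and -0.24 under camptothecin 0.31 and 0.01 uM, doxorubicin and mitomycin C. BACH2, a B cell repressor of 370 kb, was at -2.10 and -0.17 under the 2 doses of camptothecin and at 0.03 under doxorubicin, and DMD, the dystrophin gene of 2220 kb, was at 0.12 under camptothecin 0.31 uM. Another list, chosen in the same way, held genes for topoisomerases and the repair of their adducts, which are much shorter. Of 9 measured, 6 were lower and 1 higher under camptothecin 0.31 uM (19.9 and 27.0% of all genes), with TOP1 at -0.52, TOP2A at -0.74 and TOP2B at -0.68.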

How the data were processed

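The deposited values are log2 intensities per probe set of Affymetrix HT HG-U219 arrays, which the authors computed with RMA, a method that corrects background, equalises the arrays by quantiles and sums probes, per the submitters' processing notes. Its version and the genome build are not given in the sources used here. Labelled RNA of 1 well was hybridised to each of 282 arrays, though the 6 methotrexate arrays of a time may be repeats of 3 wells. The number of arrays limits the precision. Of 49386 probe sets, 45253 carried 1 gene symbol in the platform annotation. The probe set with the highest mean stood for each of 18239 genes. For each time, limma 3.58.1 (R 4.3.3) estimated 1 mean per group over 94 arrays and compared treated groups with DMSO, using eBayes with a trend. Differences between 24 h and 6 h used all 282 arrays together. Benjamini-Hochberg adjustment covered all genes of a contrast. Tables and figures were made with Python 3.11.15, numpy 2.4.6, pandas 2.3.3 and matplotlib 3.10.9, and the fits were tested on simulated data.

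The members, the 2 other gene lists, the comparisons and the alternatives were chosen with earlier results of these data known. Camptothecin 0.31 uM at all times, and WWOX under mitomycin C 2.56 uM at 24 h, are descriptions without a test. Named with values in every array were 11 chosen members and the 3 least moved under camptothecin 0.31 uM at 6 h; in the other comparisons, the 3 largest rises and 3 largest falls among the members called. SMYD3, AUTS2, ARHGAP15 and MAD1L1 were given by array after their values were seen. Spans and promoter sequences came from RefSeq (GRCh38.p14), matched by symbol for 18191 and 14492 genes. The alternatives were another quantile normalization, a filter on the 40% of genes lowest in level, the mean of all probe sets, a replicate block, a fit of the compared groups alone, array weights, leaving out low-signal arrays and leaving out each replicate. DMSO arrays were left out singly, and a replicate number of the compounds was left out of every compound together.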

Additional observations from a re-analysis of the deposited data

Results flagged for a closer look

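Single arrays far from the rest of their group were looked for in 84 groups of 4 to 10 arrays of the 14 members given by array, and 15 were found, where chance alone flags about 1 in 20 groups. Among DMSO arrays these were VPS13B in replicate 7 at 6 h (8.42), FOXP1 in replicate 1 at 6 h (8.20) and 12 h (7.11), TCF4 in replicate 8 at 6 h (9.24) and 12 h (8.51) and in replicate 2 at 24 h (10.28), WWOX in replicate 5 at 12 h (8.64), GPHN in replicate 3 at 12 h (10.0), RABGAP1L in replicate 8 at 12 h (9.77) and IMMP2L in replicate 7 at 24 h (5.91). Among methotrexate arrays they were GRIN2A in an array numbered 1 at 6 h (9.87), RERE (9.50) and SND1 (11.7) in arrays numbered 3 at 6 h, and WWOX (7.29) and RABGAP1L (9.60) in an array numbered 2 at 12 h. DMSO replicates 1, 3 and 8 at 12 h, DMSO replicate 7 at 24 h and 1 methotrexate array numbered 2 at 12 h are among the low-signal arrays.

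For 15 pairs of a named member and a treatment, the change at 24 h differed from that at 6 h in the limma test of that difference, with all arrays and again without the low-signal ones. AFF3 accounts for 6 of them, with differences (24 h minus 6 h) of -2.08 under rapamycin 22 uM, -1.80 under trichostatin A 0.143 uM, -1.71 under cycloheximide 5 uM, -1.70 under etoposide 0.811 uM, -1.37 under mitomycin C 2.56 uM and -1.10 under trichostatin A 0.114 uM, beside the higher DMSO level of AFF3 at 24 h. WWOX differed by -1.71 under doxorubicin 0.101 uM and by -0.79 under trichostatin A 0.143 uM. Under mitomycin C 2.56 uM, FOXP1 (-1.72), RABGAP1L (-1.60) and AOPEP (-1.46) differed. RABGAP1L differed by -1.28 and FOXP1 by -1.38 under cycloheximide 5 uM, GPHN by -0.79 under trichostatin A 0.143 uM, and RABGAP1L by 1.45 under H-7 20.2 uM, the 1 positive difference of the 15. With all arrays, 12.8% of all genes differed under mitomycin C 2.56 uM and 12.7% under H-7 20.2 uM. The share was 9.81 and 6.11% under trichostatin A 0.143 and 0.114 uM, and 3.65% under cycloheximide 5 uM. It was 1.12% under doxorubicin 0.101 uM, 0.175% under rapamycin 22 uM and 0.11% under etoposide 0.811 uM.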

How the results depend on the processing

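The counts under camptothecin 0.31 uM (6, 12 and 24 h), camptothecin 0.01 uM (6 h), and cycloheximide, rapamycin, trichostatin A and H-7 (6 h) stayed within 1.5 times under every alternative run. With the mean of all probe sets, doxorubicin at 6 h lowered 14 members and mitomycin C 9, the change of VPS13B under mitomycin C turned to 0.0172, the 24 h minus 6 h count of doxorubicin was 3, and the long-gene difference was -1.02 under camptothecin 0.31 uM and 0.0846 under H-7. Replicate numbers did not pair the arrays, since deviations of same-numbered arrays had mean correlations of 0.00091 (6 h), 0.0065 (12 h) and 0.0136 (24 h). With the replicate number as a block, counts were 0 for aclacinomycin A, 10 for mitomycin C at 6 h, 0 for doxorubicin at 12 h, and 1 for camptothecin 0.01 uM and 4 for doxorubicin at 24 h. Array weights gave 11 for aclacinomycin A and 3 for etoposide at 6 h, 16 for doxorubicin at 12 h, 24 for camptothecin 0.01 uM, 30 for doxorubicin and 6 for etoposide at 24 h, and 18 for the doxorubicin time difference. With only the groups compared these were 0, 2, and at 24 h 15, 23 and 5, with 7 for mitomycin C at 24 h and 10 for the time difference. Without low-signal arrays they were 23, 27 and 6 at 24 h and 11 for the time difference. Quantile normalization again gave 2 for etoposide at 6 h and a long-gene difference of 0.148 for H-7. Without the 40% of genes lowest in level, etoposide gave 2 at 6 h and 2 at 24 h, and the time difference 2. The long-gene difference of camptothecin 0.31 uM was -1.0 from 100 kb up, -0.993 against genes of 30 to 100 kb, -0.390 over all genes with a span and -1.39 with the members kept, and that of H-7 against genes of 30 to 100 kb was 0.0597. Methotrexate arrays in place of DMSO, chosen after seeing the data, gave 21, 25 and 22 members lower at 6 h for camptothecin 0.01 uM, doxorubicin and mitomycin C. The cause of these shifts was not tested. Except without low-signal arrays, counts under these alternatives and with replicates left out carry no share of all genes. That share can move with the fit. For doxorubicin 0.101 uM at 24 h it was 3.07% with all arrays and 19.8% without the low-signal ones. The counts therefore show how calls depend on the fit, not how members compare with other genes.

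Either 1 DMSO array at a time was left out, or the arrays of 1 replicate number of every compound together. The counts lower at 6 h then ran from 37 to 38 for camptothecin 0.31 uM, 15 to 21 for 0.01 uM, 21 to 27 for doxorubicin, 10 to 22 for mitomycin C, 0 to 11 for aclacinomycin A, 0 to 2 for etoposide, 11 to 15 for trichostatin A and 12 to 15 for H-7. Counts higher ran from 17 to 19 for cycloheximide, 10 to 12 for rapamycin, 5 to 10 for monastrol, 13 to 15 for trichostatin A and 10 to 14 for H-7. At 12 h they ran from 26 to 35 for camptothecin 0.31 uM and 0 to 18 for doxorubicin, and at 24 h from 32 to 34 for camptothecin 0.31 uM, 1 to 2 for 0.01 uM, 5 to 11 for doxorubicin, 8 to 28 for mitomycin C and 0 to 2 for etoposide. The doxorubicin time difference stayed at 1. Long-gene differences ran from -1.32 to -1.30 for camptothecin 0.31 uM, -0.140 to -0.113 for 0.01 uM, -0.168 to -0.145 for doxorubicin, 0.0341 to 0.0816 for H-7 and 0.00462 to 0.0283 for trichostatin A. With 2 treated arrays the camptothecin 0.01 uM and doxorubicin differences no longer passed after adjustment. So few arrays allow only a larger smallest exact p, which could hardly pass, so this outcome decides nothing. For named members, 742 of 792 values kept their direction and call, 43 lost the call, 6 gained it and 1 reversed. These pool all alternatives, including the runs without a replicate, for camptothecin 0.01 uM, doxorubicin and mitomycin C at 6 h. With the mean of all probe sets alone, 29 of 42 values kept their call, 12 lost it and 1 reversed, so these calls depend on the probe set chosen. Signal over background was not measured, so changes of dim probe sets may be understated.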
